A study of Arabidopsis thaliana with 24 samples.

Results

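The flu mutant of Arabidopsis thaliana was compared with the wild type (wt) after 120 min of white light, on all 22217 probe sets of the arrays. The members were the arrays that the labels place at this time in these genotypes, 2 of flu and 2 of wt, which makes 4 of the 24 arrays of the series. The series follows whole 4-day-old seedlings of the Col-0 accession, grown in the dark and then moved to white light of 120 µmol m-2 s-1 at 22 °C. It holds 4 genotypes (wt, flu, and the ferrochelatase mutants fc2-1 and fc1-1) at 0, 30 and 120 min, with 2 arrays in each of the 12 groups. The dark flu and wt seedlings (0 min), the same genotypes at 30 min, and fc2-1 (fc2 below) at 120 min were used for comparison. Means of some gene lists are also given for fc1-1 at 120 min. Seeds of all groups had received 2 h of light to start germination. The labels name the mutant only as flu, without an allele, and give no line besides it. They call the replicates biological but say no more of their origin, so a p-value here reflects no more than the spread between arrays, which may be technical.

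FLU is known as a negative regulator of tetrapyrrole synthesis, the pathway that makes chlorophyll and haem. Without it, seedlings kept in the dark build up protochlorophyllide, the chlorophyll precursor that an enzyme reduces only in light, and the free pigment transfers light energy to oxygen and makes singlet oxygen inside the plastid. In wild-type seedlings the same light starts de-etiolation, in which etioplasts become chloroplasts and nuclear genes for photosynthesis are switched on. No probe set was assigned to FLU alone, so the level of the mutated gene was not read here.

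After 120 min the transcripts of photosynthesis were far lower in flu than in wt, and those of chlorophyll synthesis and flavonoid synthesis were lower too. Higher in flu were 10 of 11 autophagy genes, 7 of 12 genes of heat shock and protein folding and 7 of 17 genes of calcium sensing, of which 0, 1 and 1 were lower. Of all probe sets 10354 were called (46.6%), 6311 higher in flu (28.4%) and 4043 lower (18.2%); called means an adjusted p under 0.05 in limma. When the arrays were scaled to 2 reference genes instead, 4570 were called higher and 4883 lower, and the median difference over all probe sets went from 0.06 to -0.07, so the balance between small rises and small falls depends on the scaling. The scaling genes were AT2G28390 and AT4G34270, and AT4G34270 was itself called higher in flu by 0.35. Their mean was 7.61 and 7.355 on the wt arrays and 7.59 and 7.64 on the flu arrays, lowest on wt replicate 2. Large changes were mostly falls. Called and at least 2-fold apart were 1562 higher probe sets (7.03%) and 1871 lower (8.42%). At 8-fold the counts were 26 higher (0.117%) and 325 lower (1.46%), and at 16-fold 5 (0.0225%) and 95 (0.428%). The arrays of the genotypes did not overlap in 63.7% of all probe sets. Counts from the gene lists below are to be read against 28.4% higher and 18.2% lower over all probe sets. All 11 probe sets that differed at least 32-fold were lower in flu. All values below are log2 signals or log2 differences ± SE (n = 2 arrays per group), and each SE rests on the pooled spread within all 12 groups. In whole seedlings, fewer cells of a type and less RNA per cell cannot be told apart.

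**Figure D1:**
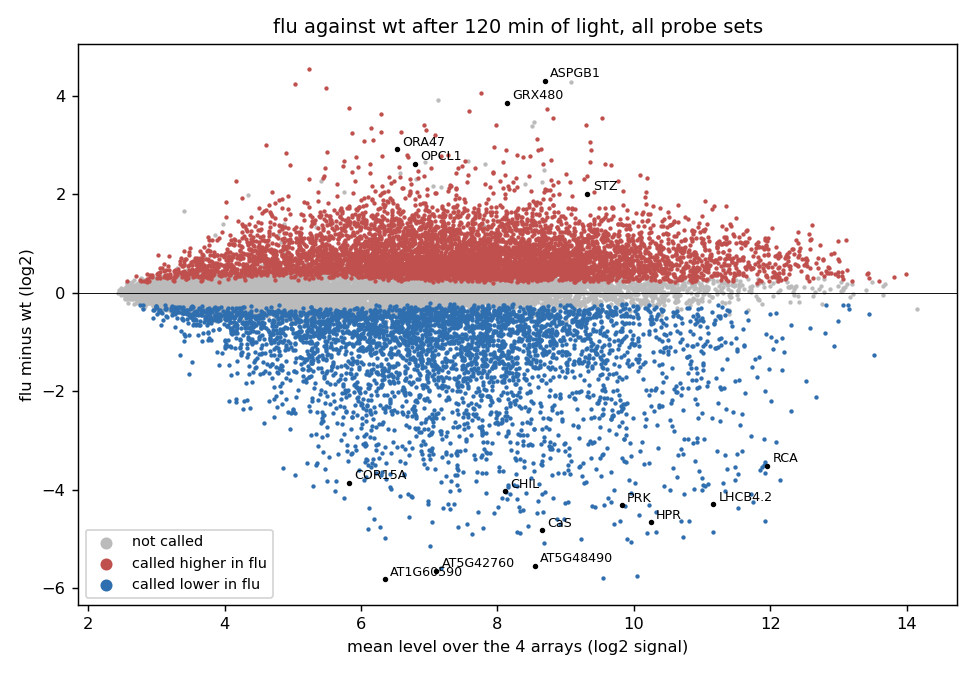
Difference between flu and wt at 120 min (y axis, log2) against the mean level over the 4 arrays (x axis, log2 signal), 1 point per probe set; red points were called higher in flu, blue points lower and grey points were not called, and black points mark genes described in the text. The falls reach below -5 and the rises stay below 5.

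The arrays of wt at 120 min were the least alike of all groups. The 2 wt arrays correlated at 0.9907 across probe sets and differed by a median of 0.18, and the 2 flu arrays correlated at 0.9925 and differed by 0.15. Over all 12 groups the correlation between replicates was 0.9907 to 0.9986, and the array medians lay between 5.98 and 6.23. Seed-maturation transcripts differed between replicates. The mean of OLEO3, PAP85, M17 and M10, genes of late embryos and seed stores, was 5.50 and 7.88 on the wt arrays and 9.62 and 7.61 on the flu arrays, so the groups overlapped. Genes of that kind are given with these values beside them.

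The transcripts of carbon fixation showed how far the difference went. PRK (phosphoribulokinase, which regenerates the acceptor of carbon dioxide) was at 12.18 and 11.78 in wt and at 7.93 and 7.40 in flu, a difference of -4.32 ± 0.17 (adjusted p = 4.23e-13), which is 19.9-fold. SBPASE (sedoheptulose bisphosphatase of the same cycle) was at 11.77 and 11.44 in wt and at 7.45 and 7.06 in flu, a difference of -4.35 ± 0.16. RCA (Rubisco activase) was at 13.74 and 13.68 in wt and at 10.32 and 10.07 in flu, a difference of -3.52 ± 0.10. These were all 3 measured genes of the Calvin cycle, and in each both flu arrays lay below both wt arrays. In all lists a gene counts as measured only if a probe set was assigned to it alone and it was placed in the list. Other members may lie among the probe sets without a listed gene, so a list need not cover its whole pathway. HPR (hydroxypyruvate reductase of photorespiration) was at 12.70 and 12.46 in wt and at 8.20 and 7.63 in flu, a difference of -4.66 ± 0.15.

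Of 12 measured genes of the photosystems and of electron transport, 11 fell and 0 rose, with a median difference of -3.52 beside 0.06 over all probe sets. Their mean level was 10.84 and 10.65 on the wt arrays and 7.55 and 7.28 on the flu arrays. CaS (a calcium-binding protein of the thylakoid membrane) fell the most among them. It was at 11.22 and 10.92 in wt and at 6.23 and 6.26 in flu, a difference of -4.82 ± 0.12 (adjusted p = 5.24e-15), or 28.3-fold. The arrays of the genotypes did not overlap there or in the next genes. PSBY of photosystem II was at 12.80 and 12.75 in wt and at 8.96 and 8.41 in flu (-4.09 ± 0.15). PSAN of photosystem I was at 12.44 and 12.27 in wt and at 9.18 and 8.98 in flu (-3.28 ± 0.11). ATPC1, the gamma subunit of the chloroplast ATP synthase, was at 12.51 and 12.38 in wt and at 9.42 and 9.39 in flu (-3.04 ± 0.10). Subunits of both photosystems and of the ATP synthase were thus all lower on both flu arrays. Leaving out any of the 4 arrays left the count at 11. NdhN of the NDH complex, which cycles electrons around photosystem I, fell by 4.01 ± 0.12, and TROL, the thylakoid anchor of ferredoxin-NADP reductase, fell by 4.35 ± 0.22.

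All 3 measured light-harvesting genes encode the minor antenna protein CP29, and all 3 fell. LHCB4.2 was at 13.31 on both wt arrays and at 9.45 and 8.58 in flu (-4.29 ± 0.18), and LHCB4.1 at 13.03 and 12.93 in wt and at 9.86 and 9.51 in flu (-3.29 ± 0.12). LHCB4.3 was at 9.75 and 9.74 in wt and at 7.48 and 7.53 in flu (-2.24 ± 0.11). In LHCB4.2 and LHCB4.3 the dark seedlings already differed, by -1.34 ± 0.18 and -0.54 ± 0.11. In LHCB4.1 the dark difference was -0.06 ± 0.12, which was not called.

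Genes that build and protect the photosynthetic membranes were mostly lower, in lists drawn up after values had been seen. Of 24 measured genes for NDH assembly, photosystem assembly and plastid RNA editing, 18 fell and 0 rose (median -1.21). NdhL was at 8.98 and 8.65 in wt and at 4.61 and 4.74 in flu (-4.14 ± 0.18), and PSB27, an assembly factor of photosystem II, at 12.42 and 12.29 in wt and at 9.20 and 8.39 in flu (-3.56 ± 0.17). Of 9 measured genes of plastid thioredoxins and of ascorbate synthesis and use, 8 fell and 1 rose (median -1.90). TAPX, the ascorbate peroxidase bound to the thylakoid, fell by 2.81 ± 0.11, TRXF2, a thioredoxin that activates Calvin cycle enzymes, by 2.66 ± 0.12, and GME and VTC4, which act in ascorbate synthesis, by 1.96 ± 0.11 and 1.90 ± 0.13. Among 5 genes of plastid chaperonins and of LIL3, 4 fell: LIL3:1 and LIL3:2, which hold geranylgeranyl reductase and the chlorophyll-making enzymes at the membrane, by 3.67 ± 0.20 and 3.02 ± 0.17, Cpn60beta4 by 2.42 ± 0.21 and Cpn60beta2 by 2.35 ± 0.13. Cpn60beta3 was higher by 0.46 ± 0.13, a call that was lost without flu replicate 1 (0.31, adjusted p = 0.11).

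**Figure D2:**
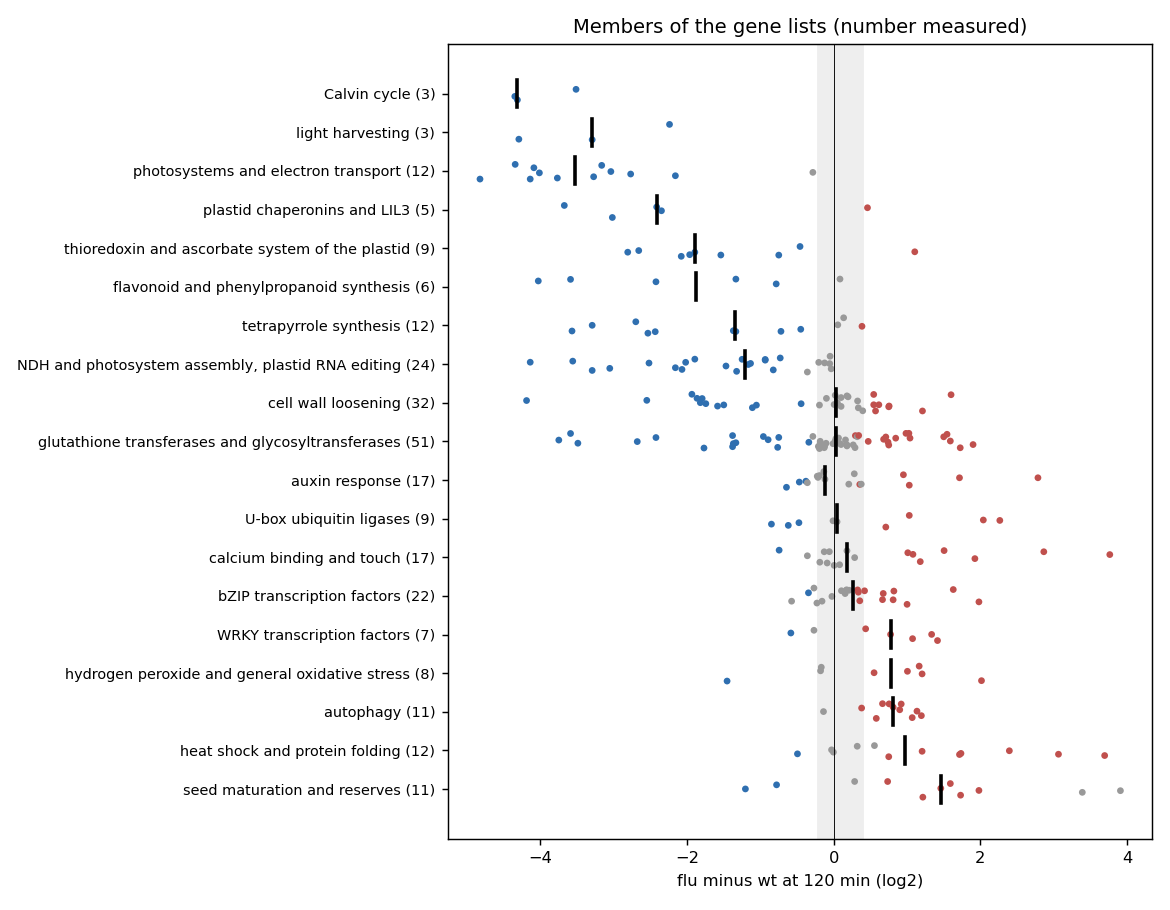
Difference between flu and wt at 120 min (x axis, log2) for every measured member of 19 gene lists (y axis, number measured in brackets); red members were called higher, blue lower, grey not called, the black bar is the median of the list and the grey band runs from the lower to the upper quartile of all probe sets. The photosynthesis lists lie to the left of the band, and autophagy, heat shock and WRKY genes mostly to its right.

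The tetrapyrrole pathway itself was lower at most steps. Of 12 measured genes 9 fell and 1 rose, with a median of -1.35. The 1 rise was not called without flu replicate 1, flu replicate 2 or wt replicate 2. AT1G74470, the geranylgeranyl reductase that makes the phytol tail of chlorophyll, was at 13.17 and 13.14 in wt and at 9.70 and 9.47 in flu (-3.57 ± 0.11; adjusted p = 2.73e-14). CHLI2, a subunit of magnesium chelatase at the entry to the chlorophyll branch, was at 8.78 and 8.51 in wt and at 5.38 and 5.32 in flu (-3.29 ± 0.14). CHLM, the methyltransferase of the following step, was at 11.99 and 11.83 in wt and at 9.21 on both flu arrays (-2.70 ± 0.08). The wt and flu arrays of these genes did not overlap. HEME1 and HEME2, uroporphyrinogen decarboxylases that act before the branch to haem, fell by 2.53 ± 0.14 and 2.43 ± 0.13. In the dark only 1 of the 12 genes was called, higher in flu, and at 30 min 9 were lower. The 1 measured carotenoid gene, LYC (lycopene cyclase), fell by 0.73 ± 0.11, and CLPP4, a subunit of the plastid Clp protease, by 1.42 ± 0.12.

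The 12 largest falls included 2 genes whose levels were low in the dark and rose in wt in light. AT1G60590, whose function the gene tables do not give, was at 3.35 and 3.37 in the dark wt and at 9.53 and 8.99 in wt after 120 min. In flu it was at 3.51 and 3.64 in the dark and at 3.23 and 3.65 after 120 min, so the flu arrays of both times overlapped. The difference at 120 min was -5.82 ± 0.17 (adjusted p = 1.52e-14), or 56.5-fold, the largest fall among probe sets with 1 gene. AT5G42760, also without a described function, was at 9.99 and 9.86 in wt and at 4.25 and 4.31 in flu (-5.64 ± 0.14), from dark levels of 4.38 and 3.88 in wt and 4.03 and 4.18 in flu.

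Flavonoid synthesis followed. Of 6 measured genes 5 fell and 0 rose (median -1.88). CHIL, a chalcone isomerase-like protein that aids flavonoid production, was at 10.10 and 10.14 in wt and at 6.15 and 6.03 in flu, a difference of -4.03 ± 0.12. The flavonol glycosyltransferase UGT78D1 was at 8.09 and 7.43 in wt and at 4.42 and 3.92 in flu (-3.59 ± 0.23). UF3GT was at 7.29 and 8.19 in wt and at 5.09 and 5.54 in flu (-2.42 ± 0.24). UGT78D2 fell by 1.33 ± 0.13 and DFR, of the anthocyanin branch, by 0.79 ± 0.28, a call lost without wt replicate 2 (-0.41, adjusted p = 0.33) and without either flu replicate. UGT78D3 did not pass the test. HYH, a bZIP factor that promotes light responses together with HY5, was at 9.51 and 8.86 in wt and at 6.69 and 6.83 in flu (-2.42 ± 0.20; adjusted p = 8.33e-09), below its dark flu levels of 7.62 and 7.83. The other two measured light-signalling genes rose, FHL by 0.96 ± 0.25 and EIN3 by 0.56 ± 0.15. FHL was not called without flu replicate 1 (0.70, adjusted p = 0.065), nor EIN3 without wt replicate 2 (0.40, adjusted p = 0.082).

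AT5G48490 fell well below its dark level. It was at 10.70 and 10.68 in dark wt, 10.54 and 10.37 in dark flu, 11.41 and 11.22 in wt at 120 min, and 5.65 and 5.90 in flu at 120 min. Its difference was -5.54 ± 0.15 (adjusted p = 7.5e-15). Of the probe sets called at least 2-fold lower at 120 min, 821 lay in the highest of 5 equal bins by dark level and 19 in the lowest bin. At that size the rises were spread otherwise, with 338 in the highest bin, 512 in the middle bin and 42 in the lowest. Calls of any size grew with the dark level in both directions. They went from 6.03% higher and 3.15% lower in the lowest bin to 42.5% and 30.4% in the highest. The lowest bin lay between 2.43 and 3.735, near the lowest signal of 2.31, which leaves little room for a fall. The other genes among the 12 largest falls were AT1G27480 (-4.97 ± 0.19), AT3G05730 (-4.79 ± 0.36), AT5G55620 (-4.78 ± 0.19), AT1G65230 (-4.75 ± 0.26), AT1G15290 (-4.70 ± 0.25), AT3G48200 (-4.59 ± 0.21) and AT2G29290 (-4.56 ± 0.14), and the tables give no function for them.

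**Figure D3:**
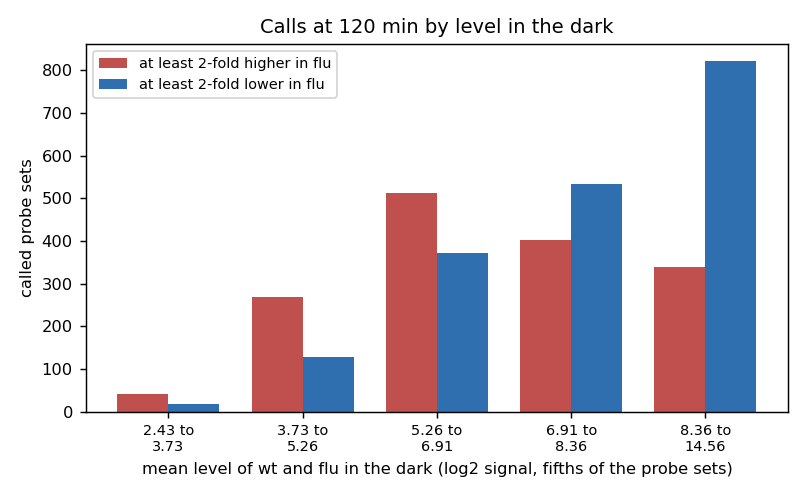
Number of probe sets called and at least 2-fold higher (red) or lower (blue) in flu at 120 min (y axis), in 5 equal bins of the mean level of wt and flu in the dark (x axis, log2 signal). Falls grow from 19 in the lowest bin to 821 in the highest, while rises peak at 512 in the middle bin.

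Among probe sets with 1 gene and arrays that did not overlap, the largest rise was that of ASPGB1, an asparaginase that releases ammonium from asparagine. It was at 6.39 and 6.69 in wt and at 10.82 and 10.87 in flu, a difference of 4.30 ± 0.11 (adjusted p = 5.24e-15), or 19.8-fold. The dark seedlings already differed, with 7.20 and 7.11 in wt and 9.50 and 9.64 in flu (2.42 ± 0.11), and the flu arrays did not overlap those of wt at any time. The next largest rise was in GRX480, a glutaredoxin that binds TGA factors and is induced by salicylate. It was at 6.12 and 6.29 in wt and at 9.94 and 10.20 in flu (3.87 ± 0.19; adjusted p = 6.66e-12), and its dark levels, 5.17 and 4.75 in wt and 4.73 and 5.16 in flu, overlapped. Without a described function, AT2G18210 was at 6.82 and 6.89 in wt and at 10.63 and 10.54 in flu (3.73 ± 0.14). AT5G19110 was at 4.65 and 4.67 in wt and at 7.71 and 8.14 in flu (3.26 ± 0.14). AR781 rose by 2.90 ± 0.31 and AT5G12340 by 2.81 ± 0.16.

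Of 17 genes for calcium sensors and calcium-dependent kinases 7 rose and 1 fell, beside 28.4% higher and 18.2% lower over all probe sets. All 7 rose at least 2-fold, beside 7.03% of all probe sets called and higher by that much. AT1G76640, which encodes the calmodulin-like protein CML39, was at 3.85 and 4.04 in wt and at 7.43 and 7.99 in flu (3.76 ± 0.23; adjusted p = 2.1e-10). AT3G01830, listed with them, was at 3.93 and 4.22 in wt and at 6.93 and 6.95 in flu (2.86 ± 0.25). CML37 was at 4.96 and 5.19 in wt and at 6.96 and 7.04 in flu (1.92 ± 0.19). CML43 rose by 1.51 ± 0.14 and CML42 by 1.08 ± 0.11. At 30 min CML37 and AT3G01830 differed the other way, by -1.04 ± 0.19 and -1.28 ± 0.25.

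Of 12 genes of heat shock and protein folding 7 rose and 1 fell, beside 28.4% higher and 18.2% lower over all probe sets. Their mean level was 6.86 and 6.67 in wt and 7.86 and 8.14 in flu. In fc2 it was 8.78 and 8.72, and in fc1-1 7.62 and 7.94. AT1G53540, a small heat-shock protein, was at 5.70 and 5.76 in wt and at 9.39 and 9.46 in flu (3.70 ± 0.20; adjusted p = 2.53e-11). AT1G54050, of the same kind, was at 7.81 and 7.85 in wt and at 10.86 and 10.93 in flu (3.06 ± 0.24). AT2G20560, a DnaJ co-chaperone, was at 7.01 and 6.82 in wt and at 9.21 and 9.41 in flu (2.39 ± 0.25). AT5G51440 rose by 1.73 ± 0.30 and AT1G52560 by 1.72 ± 0.22. At 30 min 5 genes of the list were called lower in flu, 1 higher and 6 were not called. AT2G20560 then differed by -0.80 ± 0.25 and AT5G51440 by -0.98 ± 0.30. Of the factors linked to the unfolded protein response, BZIP60 and BZIP28 rose by 1.00 ± 0.11 and 0.81 ± 0.10 at 120 min.

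Jasmonate genes, WRKY factors and U-box ligases gave mixed counts, to be read against 28.4% higher and 18.2% lower over all probe sets. ORA47, an AP2 factor that activates jasmonate synthesis, was at 4.98 and 5.16 in wt and at 7.81 and 8.16 in flu (2.92 ± 0.18; adjusted p = 1.87e-10). OPCL1, a ligase of the peroxisomal part of jasmonate synthesis, was at 5.41 and 5.55 in wt and at 7.98 and 8.22 in flu (2.62 ± 0.12). Of the 4 measured jasmonate genes, 2 rose and 0 fell; the second was MYC3, at 0.52 ± 0.16, whose call was lost without wt replicate 2 (0.38, adjusted p = 0.14) or flu replicate 1 (0.49). MYC4 and JMT did not pass the test. Of 7 WRKY factors 5 rose and 1 fell: WRKY6 rose by 1.42 ± 0.15, WRKY47 by 1.34 ± 0.17, WRKY53 by 1.08 ± 0.19 and WRKY22 by 0.78 ± 0.15. The other rise, WRKY42 at 0.435, was 0.175 without flu replicate 2. Without wt replicate 1 no WRKY gene was called lower. Of 9 U-box ubiquitin ligases 4 rose and 3 fell. PUB24 was at 4.79 and 4.78 in wt and at 6.87 and 7.23 in flu (2.27 ± 0.19), PUB23 at 6.10 and 6.02 in wt and at 7.84 and 8.36 in flu (2.04 ± 0.18), and PUB22 rose by 1.03 ± 0.13. These 3 ligases are known to dampen immune responses. PUB25 fell by 0.85 ± 0.16, and by 0.56 without flu replicate 2.

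Genes listed for oxygen species were not of 1 direction. AT5G64870, listed as induced by singlet oxygen, was at 6.03 and 6.38 in wt and at 8.31 and 8.50 in flu (2.20 ± 0.14; adjusted p = 3.53e-10). AT3G28580, listed likewise, was at 2.60 and 2.66 in wt and at 2.94 and 2.83 in flu (0.26 ± 0.10; adjusted p = 0.0459), close to the lowest signals of the arrays, and leaving out any array ended the call. EX1, the plastid protein through which singlet oxygen acts on nuclear genes, fell by 0.77 ± 0.13. The mean level of these 3 genes was 5.86 and 5.87 in wt and 6.39 and 6.47 in flu. It was 5.53 and 5.70 in fc2 but 6.69 and 6.67 in fc1-1, so the higher mean was not particular to flu. Of 8 genes of hydrogen peroxide and general oxidative stress 5 rose and 1 fell, beside 28.4% higher and 18.2% lower over all probe sets. STZ, the zinc-finger repressor also called ZAT10, was at 8.10 and 8.52 in wt and at 10.29 and 10.36 in flu (2.02 ± 0.21). The methionine sulfoxide reductases split: MSRB5 and MSRB9 rose by 1.21 ± 0.14 and 1.00 ± 0.10, while MSRB6, at 9.93 and 9.76 in wt and 8.05 and 8.73 in flu, fell by 1.46 ± 0.19. AT2G21640, known as a marker of oxidative stress, was at 8.04 and 7.82 in wt and at 7.75 on both flu arrays, and did not pass the test.

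Autophagy genes rose together and by less. Of 11 measured genes 10 rose and 0 fell, with a median of 0.81, and their mean level was 8.82 and 8.87 on the wt arrays and 9.55 and 9.65 on the flu arrays. APG8A, a ubiquitin-like protein that coats the autophagosome, was at 9.83 and 9.98 in wt and at 11.15 and 11.05 in flu (1.20 ± 0.10; adjusted p = 7.49e-09). Its relatives ATG8G, ATG8B, ATG8D and APG8H rose by 1.14 ± 0.12, 1.07 ± 0.12, 0.90 ± 0.10 and 0.75 ± 0.09. In the dark 2 of the 11 were lower in flu and 0 higher, and at 30 min 6 were higher and 0 lower. Of 18 genes of senescence and of sugar transport 6 rose (4 when scaled to 2 reference genes) and 2 fell. Over all probe sets 28.4% were higher and 18.2% lower. Besides ASPGB1, SWEET3, SWEET17 and SWEET16, which move sugars across membranes, rose by 0.93 ± 0.11, 0.80 ± 0.13 and 0.64 ± 0.12. SWEET1 fell by 2.33 ± 0.21.

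Of 32 genes that loosen or remodel the wall 12 fell and 8 rose, beside 18.2% lower and 28.4% higher over all probe sets. At least 2-fold were 11 of the falls but 2 of the rises. XTH32, a xyloglucan-modifying enzyme, was at 10.37 and 10.11 in wt and at 5.70 and 6.40 in flu (-4.19 ± 0.18; adjusted p = 1.07e-12). The expansins EXPB1, EXPA15, EXPA8 and EXPA4 fell by 1.87 ± 0.13, 1.75 ± 0.15, 1.58 ± 0.12 and 1.5 ± 0.12. Of 17 auxin genes 5 rose and 3 fell (1 without flu replicate 1), close to the shares over all probe sets (28.4% higher and 18.2% lower). GH3.3, which conjugates auxin to amino acids, was at 5.36 and 6.21 in wt and at 8.34 and 8.80 in flu (2.79 ± 0.21), and IAA29, a repressor of auxin response, at 5.07 and 4.85 in wt and at 6.75 and 6.60 in flu (1.72 ± 0.16). Within wt both had stood higher in the dark, GH3.3 at 7.76 and 7.49 and IAA29 at 8.09 and 8.16. The flu levels of GH3.3 given above, 8.34 and 8.80, lay above its dark wt levels. Those of IAA29, 6.75 and 6.60, lay below its dark wt levels. WAG2 rose by 1.03 ± 0.19.

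Cold- and dehydration-linked genes gave a wide range: of 6 measured, 3 rose (1 without flu replicate 1 or wt replicate 2) and 2 fell. COR15A, which protects chloroplast membranes from freezing, was at 7.32 and 8.19 in wt and at 4.29 and 3.50 in flu (-3.86 ± 0.33; adjusted p = 1.8e-08). In the dark it was at 4.19 and 4.06 in wt and at 5.16 and 6.32 in flu, so the order of the genotypes turned. Its neighbour in function COR15B was at 6.02 and 6.93 in wt and at 4.46 and 4.47 in flu (-2.01 ± 0.23). RD2 rose by 0.73 ± 0.10. Of 51 glutathione transferases and glycosyltransferases 16 rose and 15 fell, beside 28.4% higher and 18.2% lower over all probe sets, with UGT76E11 at -3.75 ± 0.12, GSTU18 at -3.49 ± 0.11, UGT71B1 at -2.68 ± 0.14 and UGT72E1, which acts on monolignols, at 1.90 ± 0.10. Of 22 cytochrome P450 genes 4 rose and 3 fell (1 without flu replicate 2), below the shares over all probe sets (28.4% and 18.2%), and the largest by fold among those named were CYP71B23 at 1.27 ± 0.16 and CYP71B29 at 1.14 ± 0.12.

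Among 6 cytokinin genes 1 was called. RR16, a type-A response regulator that cytokinin induces, was at 8.67 on both dark flu arrays and at 4.84 and 4.91 in dark wt. After 120 min it was at 4.13 and 4.05 in flu and at 5.36 and 5.52 in wt (-1.35 ± 0.17; adjusted p = 3.23e-06). The flu arrays were the higher ones at 0 min and the lower ones at 120 min. Markers of other tissues were few. Both vascular genes rose, GUT2 and IRX15, which act in xylan synthesis, by 0.85 ± 0.10 and 1.06 ± 0.16. Of 3 genes of the stomatal lineage 2 fell, SPCH by 1.00 ± 0.21 (0.63 without wt replicate 1) and FMA by 0.55 ± 0.17, a call lost without wt replicate 1 (-0.52). Of 2 root hair genes EXPA7 rose by 0.75 ± 0.19, a call lost without wt replicate 1 (0.47) or flu replicate 2 (0.56), and the 1 epidermal gene did not pass the test. Their part in the other results was not tested.

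Of 11 seed-maturation genes 6 rose and 2 fell; without flu replicate 1 or wt replicate 1 only 3 rose, and without wt replicate 2 it was 9. Their mean level was 7.73 and 8.97 on the wt arrays and 10.28 and 9.02 on the flu arrays. M17 and PAP85 were 3.91 ± 1.89 and 3.39 ± 1.55 higher in flu and were not called (adjusted p = 0.104 and 0.0854). OLEO3 fell by 1.21 ± 0.12. AT3G01570, named among the 12 largest rises, was at 5.88 and 9.29 in wt and at 11.98 and 10.02 in flu (3.42 ± 1.17; adjusted p = 0.0228). Its wt arrays lay as far apart as its groups, and it followed the seed-maturation mean given above. Without wt replicate 1 its difference was 1.71, and without flu replicate 1 it was 2.44. With the seed-maturation mean as a covariate in limma it was 1.25 and still called (adjusted p = 0.0266). With arrays weighted by their spread it was not called (adjusted p = 0.10).

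The calls at 120 min were mostly absent in the dark and often present at 30 min. In the dark 738 probe sets were called (3.32%), 361 higher (1.62%) and 377 lower (1.7%) in flu. Of the 1562 probe sets at least 2-fold higher at 120 min, 28 were called higher in the dark (1.79% of them, and 7.76% of the 361), and of the 1871 at least 2-fold lower, 58 were called lower in the dark (3.10%, and 15.4% of the 377). More were called the other way in the dark, 59 of the first set lower and 92 of the second set higher. At 30 min 8983 were called (40.4%), 4755 higher (21.4%) and 4228 lower (19%). Of the same 2 sets, 1176 were called higher at 30 min (75.3%, and 24.7% of the 4755) and 1566 lower (83.7%, and 37.0% of the 4228). Their medians at 30 min were 0.69 and -0.89, against 1.29 and -1.75 at 120 min. The number of calls at 30 min depended on single arrays, with 5921 without wt replicate 2 of that time, and in the dark it fell to between 180 and 378 when any of the 4 arrays was left out.

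The difference at 120 min was set against that in the dark in the same model. This asks whether the difference changed in either direction, also where it shrank or turned. It was called for 8503 probe sets (38.3%), 5106 towards flu (23%) and 3397 against it (15.3%). The change was -4.84 ± 0.17 for CaS and -4.07 ± 0.24 for PRK, whose dark differences were not called, and -3.52 ± 0.16 for AT1G74470. For LHCB4.2, which was already lower in the dark, it was -2.95 ± 0.26. For ASPGB1 it was 1.89 ± 0.15, on top of the dark difference of 2.42. The largest changes against flu were in AT3G21670, a member of the NRT1/PTR transporter family (-6.05 ± 0.30), and in AT1G60590 (-6.04 ± 0.24). AT3G21670 was at 6.56 and 6.92 in dark wt and at 8.84 and 8.64 in dark flu, but at 10.76 and 10.69 in wt and at 7.09 and 6.26 in flu after 120 min. Its order therefore turned, as in RR16 (-5.14 ± 0.25) and COR15A (-5.47 ± 0.47).

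**Figure D4:**
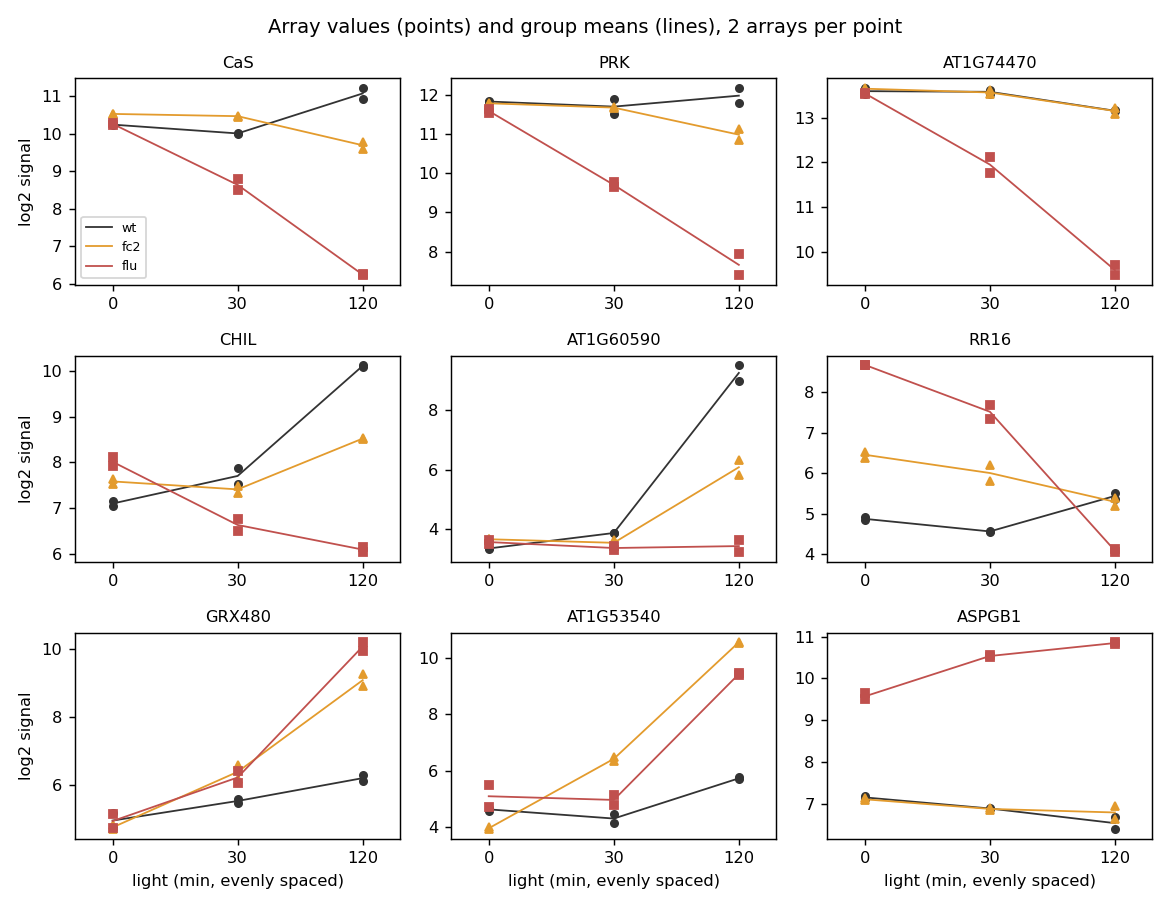
Log2 signal (y axis) of 9 genes at 0, 30 and 120 min of light (x axis, evenly spaced) in wt (dark grey circles), fc2 (orange triangles) and flu (red squares); points are the 2 arrays of a group and lines join group means. CaS, PRK and AT1G74470 fall in flu from 30 min on, AT1G60590 rises in wt and stays at its dark level in flu, RR16 crosses from high to low, and ASPGB1 is high in flu at all times.

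The fc2 mutant, in which a plastid ferrochelatase is lost, was measured at the same time and is also known to make singlet oxygen in plastids in light. The direct comparison of flu with fc2 uses the same flu arrays as that with wt, and it called 8321 probe sets (37.5%), 4772 higher in flu (21.5%) and 3549 lower (16%). Photosynthesis was lower in flu than in fc2 in all 3 Calvin cycle genes, all 3 light-harvesting genes and 11 of 12 genes of the photosystems and electron transport. CaS was at 9.78 and 9.60 in fc2, between wt and flu (-3.44 ± 0.12 for flu against fc2). AT1G74470 was at 13.09 and 13.21 in fc2 against 13.17 and 13.14 in wt, and only flu was low (-3.56 ± 0.11 against fc2). The largest falls against fc2 were in AT5G48490 (-4.51 ± 0.15), AT5G44440 (-3.87 ± 0.15), TROL (-3.82 ± 0.22), ATHSP22.0 (-3.77 ± 0.14) and AT5G38520 (-3.61 ± 0.17).

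Of the 12 genes of heat shock and protein folding 5 were lower and 0 higher in flu than in fc2, and 7 were not called. ATHSP22.0 was at 10.19 on both fc2 arrays, at 6.26 and 6.57 in flu and at 5.50 and 5.83 in wt. AT1G52560 was at 8.22 and 8.11 in fc2 and at 4.91 and 5.82 in flu (-2.80 ± 0.22 for flu against fc2), and AT1G53540 at 10.56 and 10.54 in fc2 against 9.39 and 9.46 in flu (-1.12 ± 0.20). AT1G54050 was at 11.61 and 11.82 in fc2 against 10.86 and 10.93 in flu (-0.82 ± 0.24). AT2G20560, at 9.0 and 8.77 in fc2, and AT5G51440, at 10.44 and 10.39, did not pass this test (0.42 ± 0.25 and 0.13 ± 0.30).

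Among the genes with large rises in flu, some stood nearer to wt than to flu in fc2 and others did not. ASPGB1 was at 6.65 and 6.94 in fc2, so that flu was higher by 4.05 ± 0.11. AT2G18210 was at 7.36 and 7.39 in fc2 (3.21 ± 0.14 for flu against fc2) and AT5G19110 at 4.71 and 4.94 (3.10 ± 0.14). OPCL1 was at 6.04 and 5.85 in fc2 (2.15 ± 0.12) and AT5G64870 at 5.60 and 5.89, below both wt arrays (2.66 ± 0.14). GRX480, at 8.90 and 9.26 in fc2, and STZ, at 9.66 and 9.89, were above both wt arrays in fc2 as well, and flu was higher than fc2 by 0.99 ± 0.19 and 0.55 ± 0.21. AT3G01570 and AT5G66780 were higher in flu than in fc2 by 4.24 ± 1.17 and 3.23 ± 0.68, where the seed-maturation mean was 6.54 and 7.63 in fc2 and 9.62 and 7.61 in flu.

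**Figure D5:**
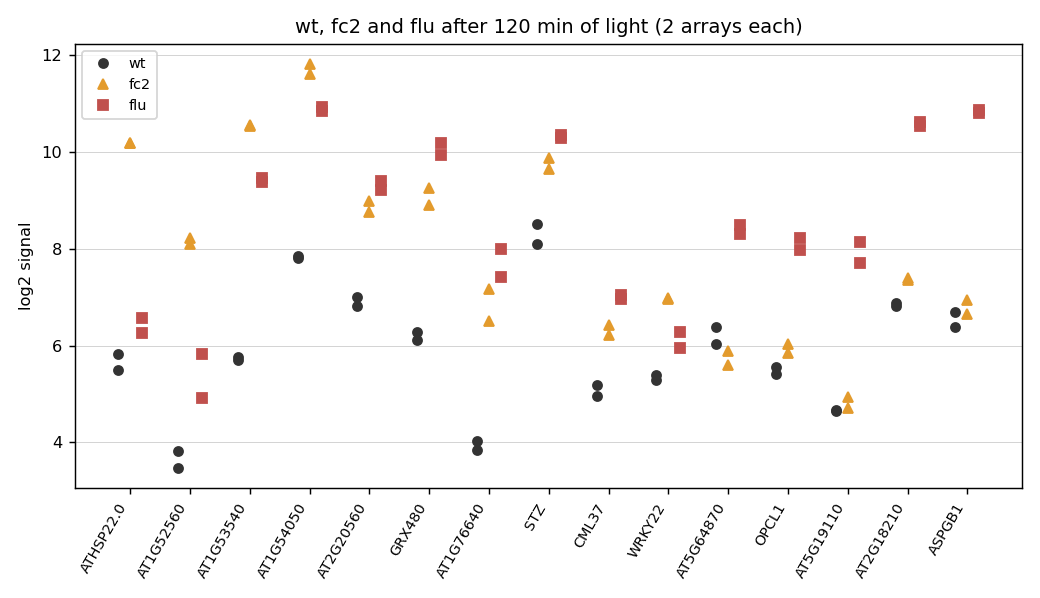
Log2 signal (y axis) of 15 genes (x axis) after 120 min of light on the 2 arrays each of wt (dark grey circles), fc2 (orange triangles) and flu (red squares). ATHSP22.0 and AT1G52560 are highest in fc2. OPCL1, AT5G64870, AT5G19110, AT2G18210 and ASPGB1 are highest in flu among the genotypes shown, and in fc2 they lie nearer to wt than to flu.

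The remaining lists had few members or few calls, to be read against 28.4% higher and 18.2% lower over all probe sets. Reference genes, chosen for steady levels, had 3 of 8 called higher and 0 lower, with AT5G46630 at 0.49 ± 0.10, PEX4 at 0.37 ± 0.10 and AT4G34270 at 0.35 ± 0.09. PEX4 was no longer called without flu replicate 2 (0.24), nor AT4G34270 without wt replicate 2 (0.24). Of 5 salicylate and immunity genes 3 rose and 1 fell, GRX480 among the rises. With only the 4 compared arrays 1 rose and 0 fell. The fall, EFR at -0.41, was also not called with arrays weighted by their spread. Of 4 AP2 factors 1 rose, ORA47, and 2 fell. Of 11 cell division genes 3 rose, among them HTB11 by 0.64 ± 0.11, and AUR2 fell by 0.86 ± 0.13. The 1 clock gene in its list, GI, rose by 0.27 ± 0.11 (adjusted p = 0.0495). The 1 proteasome gene in its list, RPN12a, rose by 0.26 ± 0.10 (adjusted p = 0.0498). The call of GI was lost without wt replicate 2 or flu replicate 2 (0.20 in each). That of RPN12a was lost without wt replicate 1 (0.15) or either flu replicate. No named probe set belonged to the lists of plastid protein import or cytosolic ribosomal proteins.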

How the data were processed

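Whole-seedling RNA was measured on 24 Affymetrix arrays. Per the submitters' processing notes, the authors ran RMA, which corrects background, normalizes and summarises probes, and deposited log2 signals. The version of RMA is not given in the sources used here, and the signals were used as they are. Of 22217 probe sets 13171 had 1 gene in the platform table (names updated from the TAIR10.1 gene table), 482 had several and 8564 no listed gene, so many changes stay unnamed. A model with 1 mean for each of 12 groups was fitted with limma 3.58.1 (R 4.3.3), two-sided, with Benjamini-Hochberg adjustment over all probe sets in each comparison. On data simulated from the same model it recovered 98% of 100 log2 changes of 1, with 5 false calls among 22217 probe sets. Those data had few changed probe sets and independent spread that was equal in all groups. The rate of false calls in the real data was not tested. Named were the 12 largest rises and falls with 1 gene and arrays that did not overlap, up to 5 members of each list with the smallest p (all of lists of up to 8), the 5 largest rises and falls of the comparison with the dark and with fc2, and a few scaling genes; others are given as counts. A gene with several probe sets is represented by the brightest. The members and lists were chosen with earlier results of these data known, and 11 lists were added after values had been seen; 10 look-alike symbols were dropped from lists. The result of 1 added list is not reported here. Same-numbered arrays of flu and wt deviated with a correlation of 0.383 at 0 min, -0.291 at 30 min and -0.125 at 120 min, so the numbers were not taken to pair them. The number of arrays limits the precision. Promoter and protein sequences were not used here.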

Additional observations from a re-analysis of the deposited data

Results flagged for a closer look

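The difference between flu and wt was not the same at 120 min as in the dark, by a test of the change itself in limma. It had moved towards flu for 5106 probe sets and against flu for 3397. The 5 named genes with the largest change towards flu were AT2G18210 (4.18), AT1G76640 (4.11), GRX480 (3.88), AT5G19110 (3.39) and AR781 (3.28), all log2 changes of the difference. The 5 with the largest change against flu were AT3G21670 (-6.05), AT1G60590 (-6.04), AT5G42760 (-5.62), COR15A (-5.48) and AT5G48490 (-5.30). Of these, AT3G21670 and COR15A were called higher in flu in the dark, by 2.00 ± 0.21 and 1.62 ± 0.33, and lower at 120 min. Groups of 2 arrays are too small to single out an array that stands apart.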

How the results depend on the processing

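The count of calls at 120 min was 10354. It was 8722 with arrays weighted by their spread, 9052 with the 6 groups of flu and wt alone and 7629 with only the 4 compared arrays. It was 10244 with the replicate block, in which the numbers were not shown to pair arrays, and 10236 with flu arrays crossed in the block, a setting added after seeing the data. It was between 9279 and 9646 when 1 of the 4 arrays was left out. With the mean per gene the counts were 5429 at 120 min, 4400 for the change from the dark, 4884 at 30 min, 360 in the dark and 4293 against fc2, over 13042 genes and not all probe sets. With a change of at least 2-fold as well they were 3433, 3905, 1554, 85 and 2135. Fitted on the 6 groups of flu and wt alone, the dark count was 159; that setting cannot hold fc2. Leaving out arrays gave 7502 to 8417 for the change from the dark, 5921 to 8747 at 30 min, 180 to 378 in the dark and 6526 to 7309 against fc2. Scaling to reference genes gave 10172 higher and 2428 lower at 30 min and 161 and 397 in the dark. Scaled that way, the number called higher fell by over 1.5 times in the lists of salicylate and immunity, jasmonate, singlet oxygen, cold and dehydration, tetrapyrroles, plastid chaperonins, reference genes, RALF peptides and bZIP factors, while the photosynthesis lists kept 11, 3 and 3 members called lower. Among the named genes signs turned only in ones that were not called: under that scaling UGT78D3 (-0.0475), RR22 (-0.0825) and GAPC2 (-0.1175), and with the seed covariate MYC4 (0.0406). When single arrays were left out the differences ran from -0.84 to 0.30 for ZAP1, -0.275 to 0.005 for JMT, -0.405 to 0.335 for MYC4, -0.02 to 0.41 for SAG101, -0.27 to 0.03 for RR23, -0.30 to 0.16 for RR18, -0.005 to 0.105 for RR22, -0.13 to 0.06 for RR19, -0.50 to 0.11 for AT2G32170, -0.23 to 0.06 for AT2G28390, -0.03 to 0.06 for GAPC2, -0.115 to 0.505 for EXPA18 and -0.26 to 0.07 for AT4G13840. The cause of these shifts was not tested.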

Other observations

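Gene families that the report does not describe are given here for 120 min; these lists were drawn up after values had been seen, so their counts are descriptions, to be read against 28.4% higher and 18.2% lower over all probe sets. Of 15 endoglucanases of family GH9, which cut wall glucans, 7 were called lower and 0 higher. GH9B8 was at 7.82 and 8.0 in wt and at 5.46 and 5.50 in flu (-2.43 ± 0.10), and GH9C2 at 9.94 and 9.67 in wt and at 7.67 and 7.73 in flu (-2.10 ± 0.10). In neither gene did the arrays of the genotypes overlap. Of 28 serine carboxypeptidase-like genes 7 were lower and 3 higher, with scpl46 at -2.28 ± 0.14 and scpl42 at -1.88 ± 0.09. Of 22 beta-glucosidases 4 were higher (2 without wt replicate 2) and 4 lower (2 without wt replicate 1), at or below those shares, with BGLU40 at -2.75 ± 0.14 and BGLU19 at 1.51 ± 0.31.

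Signalling peptides of the RALF family split, with 4 of 11 higher (2 without flu replicate 2) and 2 lower: RALFL34 was at 10.48 and 10.56 in wt and at 8.79 and 8.29 in flu (-1.98 ± 0.17), while RALFL27 rose by 1.02 ± 0.16. Of 22 bZIP factors 11 were higher and 1 lower (7 and 2 when scaled to reference genes), led by EEL at 5.51 and 5.91 in wt and 7.99 and 7.39 in flu (1.98 ± 0.17) and by bZIP58 (1.63 ± 0.18). Of 12 vacuolar processing enzymes and subtilases, which cut proteins, 6 were higher and 2 lower (5 and 2 with the seed-maturation mean as a covariate). BETA-VPE and ALPHA-VPE were higher by 1.53 ± 0.19 and 1.34 ± 0.13, and SBT1.3 was lower by 1.98 ± 0.27. Of 15 tetraspanins 5 were higher and 2 lower (3 and 1 without wt replicate 1), with TET6 at 1.22 ± 0.10 and TET8 at 1.03 ± 0.13.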
